A study of Mus musculus with 36 samples.

Results

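RNA sequencing followed 9 enzymes that make NADPH, or that feed the routes making it, in BV-2, a mouse microglial line that was immortalised. They are 9 of the 19879 genes in the tables, taken by their symbols: Me1, G6pdx, Pgd, Pgls, Taldo1, Tkt, Idh1, Idh2 and Nadk. The 9 were chosen with earlier results of these data known, so their counts beside the shares of all genes are descriptions. All 9 passed the filter on low counts in every comparison. The 36 libraries fall into 12 groups of 3. Wild-type BV-2 cells received DMSO, ethanol (EtOH), lipopolysaccharide (LPS), or LPS together with 1 of 3 drugs, for 4 h or 24 h. The drugs were DMF (dimethyl fumarate), MMF (monomethyl fumarate) and CBD (cannabidiol). LPS, a bacterial activator of microglia, was used at 600 ng/mL, DMF and MMF at 30 µM, CBD at 6 µM and the vehicles at 0.2%. DMSO carried the fumarates and EtOH carried CBD. Serum was lowered to 0.1% for the LPS experiments just before treatment. The labels do not say which vehicle the cells given LPS alone received, so a drug and its vehicle cannot be told apart when a drug group is set against LPS. The same holds for LPS and vehicle when LPS alone is set against DMSO or EtOH. The study's methods state that each experiment was repeated 3 times. The labels do not say whether the 3 libraries of a group came from separate cultures. The p-values therefore measure the spread between these libraries, which may be technical. All libraries come from 1 cell line and are bulk poly(A)+ RNA.

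NADPH is the electron donor of reductive synthesis and of the glutathione and thioredoxin systems, and microglia also spend it on the oxidant burst of the NADPH oxidase. In the oxidative arm of the pentose phosphate pathway, glucose-6-phosphate dehydrogenase (G6pdx) and 6-phosphogluconate dehydrogenase (Pgd) each reduce NADP, with 6-phosphogluconolactonase (Pgls) acting between them. Transketolase (Tkt) and transaldolase (Taldo1) rearrange the sugars of the non-oxidative arm and return them to glycolysis. Malic enzyme 1 (Me1) and isocitrate dehydrogenase 1 (Idh1) make NADPH in the cytosol, isocitrate dehydrogenase 2 (Idh2) makes it in mitochondria, and NAD kinase (Nadk) makes NADP in the cytosol. DMF is the dimethyl ester of fumaric acid, and MMF, its metabolite, carries 1 methyl ester and 1 free acid.

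The libraries held 14110424 to 26676607 reads on genes. Of the 10 microglia markers listed, 9 had a mean normalised read count of at least 50, and P2ry12 was lower at 45.8. Csf1r averaged 10034. The summed counts of the 10 ran from 20860 to 40830 over the libraries. Of 5 astrocyte markers, 0 reached a mean of 50, and the neuron, oligodendrocyte and T cell lists each had 1 of 5 above it, Map2, Mbp and Lck. Olig2 had a mean of 0.0 and Rbfox3, Mog and Trac one of 0.1. Replicate numbers run from 1 to 3 in the LPS-treated groups and from 4 to 6 in the vehicle groups. LPS and the set of numbers therefore cannot be told apart.

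The start regions of the 4 genes that rose with DMF at 4 h are shown because those genes carry the main result below. RefSeq promoters (build GRCm38.p6) were at hand for 9 of the 9 genes, 13 start sites in all, each with 250 bases before and 50 bases after the start. The antioxidant response element core was searched as TGACNNNGC and the AP-1 site as TGANTCA, on both strands. The core stood in 3 of the 13 promoters, 1 each of Me1, G6pdx and Pgd, against 12.4% of 32851 promoters, and the Pgd match lies in a start region other than the one shown. The AP-1 site stood in 1 of the 13, that of Me1, against 7.81%, where it overlaps the core. A match is only a match of letters. Below are 100 bases before and 30 bases from the start, 5′ to 3′ in the direction of transcription, with matches in capitals.
Me1, chr9:86695885-86696014, minus strand: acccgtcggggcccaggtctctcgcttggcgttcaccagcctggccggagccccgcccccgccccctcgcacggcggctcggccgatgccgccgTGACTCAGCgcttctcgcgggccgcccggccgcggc
G6pdx, chrX:74428851-74428980, minus strand: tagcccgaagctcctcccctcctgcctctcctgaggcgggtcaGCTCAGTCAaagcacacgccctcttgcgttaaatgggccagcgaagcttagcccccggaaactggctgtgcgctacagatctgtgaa
Pgd, chr4:149166676-149166805, minus strand: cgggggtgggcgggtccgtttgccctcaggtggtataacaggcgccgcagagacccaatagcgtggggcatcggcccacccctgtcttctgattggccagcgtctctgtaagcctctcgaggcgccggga
Taldo1, chr7:141392060-141392189, plus strand: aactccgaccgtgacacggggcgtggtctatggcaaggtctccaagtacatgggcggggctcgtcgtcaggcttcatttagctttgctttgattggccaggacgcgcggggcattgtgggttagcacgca
In Me1 the match begins 6 bases before the start. In G6pdx it lies on the other strand and begins 57 bases before the start. The Pgd start shown has none, and the match of Pgd belongs to its other listed start, where it begins at transcribed base 4. Taldo1 has no match in its window.

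In the coordinates of the deposited tables (GRCm39), Me1 lies on chromosome 9 from 86463424 to 86578006, G6pdx on chromosome X from 73453089 to 73472800 and Pgd on chromosome 4 from 149234448 to 149251228. Pgls lies on chromosome 8 (72044820 to 72053736), Taldo1 on 7 (140972112 to 140982881) and Tkt on 14 (30270316 to 30296677). Idh1 lies on chromosome 1 (65197775 to 65225659), Idh2 on 7 (79744594 to 79765140) and Nadk on 4 (155646835 to 155675458). All 9 are protein coding. Whether reads were counted by strand is not given in the sources used here, and Me1, G6pdx, Tkt and Nadk overlap annotated genes on the opposite strand, so reads of the overlaps cannot be told apart. Pgls overlaps Niban3 and Idh2 overlaps Gm45203 on their own strands. The overlapping partner with the highest count was Ikbkg, which shares a region with G6pdx. The near-identical copy G6pd2 had a mean of at most 0.754 reads in a group.

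Per kilobase of the canonical transcript, on 1 scale over all 36 libraries, Taldo1 and Pgd were the most abundant of the 9, with medians over the group means of 4499 and 4094. Pgls (2659), Tkt (2166), Idh2 (2157) and Nadk (1948) followed, then G6pdx (993.4), Idh1 (539.4) and Me1 (178.9). Taldo1, Pgd, Idh1 and Me1 keep their places when the length is the union of all annotated exons, whereas G6pdx (905.8) then stands above Nadk (757.4), Tkt (668.4), Pgls (485.6) and Idh2 (444.9). The order in the middle therefore depends on the length used.

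**Figure D1:**
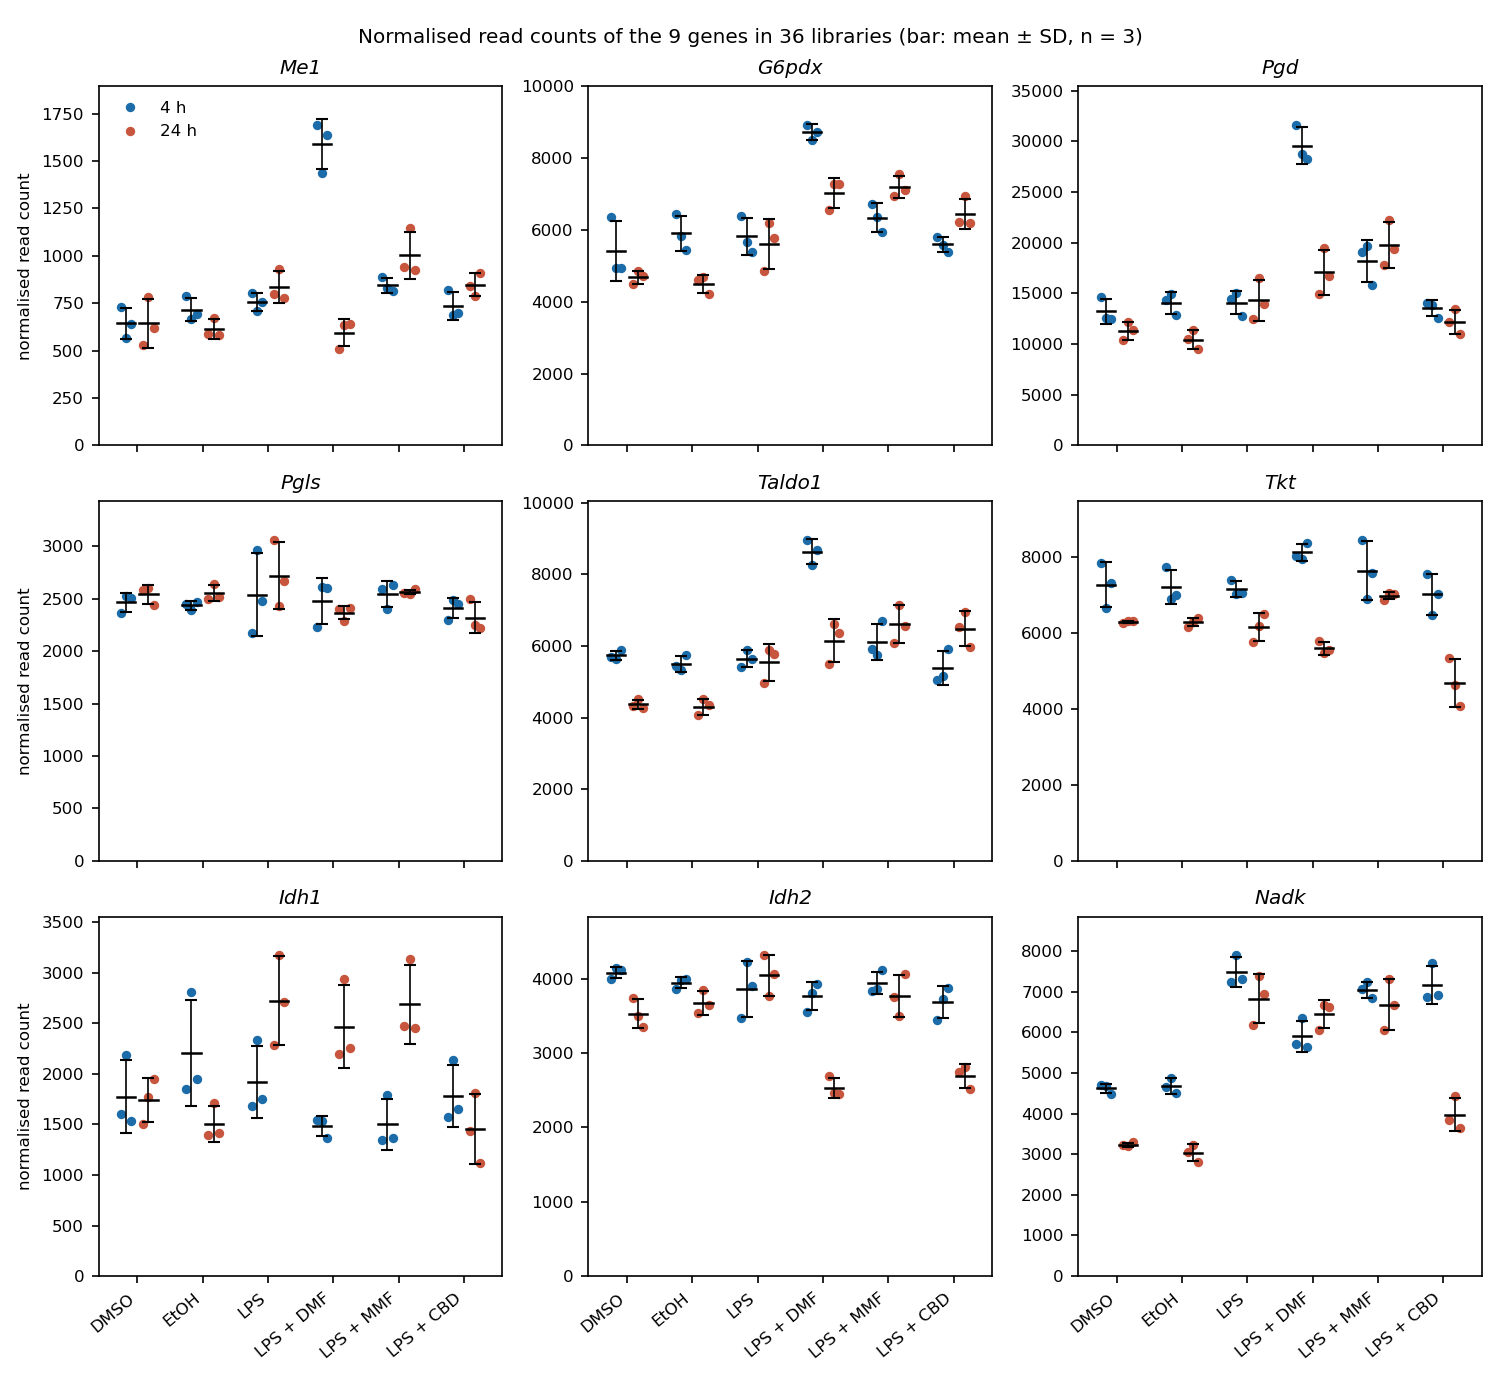
Normalised read counts (y axis, 1 scale over 36 libraries, linear from 0) of the 9 genes in 6 treatments (x axis) at 4 h (blue) and 24 h (red); points are libraries and bars the mean ± SD of 3. Me1, Pgd, G6pdx and Taldo1 peak in LPS + DMF at 4 h, Nadk is low in the vehicles and in LPS + CBD at 24 h, and Pgls stays between 2178 and 3062.

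The 9 genes differed in how far they moved. The highest group mean was 2.83 times the lowest for Pgd, 2.67 times for Me1, 2.47 times for Nadk and 2.01 times for Taldo1. The ratio was 1.17 for Pgls, the only one of the 9 that passed the test in no comparison of the fit without a replicate block. LPS + DMF at 4 h was the highest of the 12 groups for Me1, G6pdx, Pgd, Taldo1 and Tkt, while the lowest was EtOH at 24 h for G6pdx, Pgd, Taldo1 and Nadk. Tkt, Idh1 and Pgls were lowest in LPS + CBD at 24 h, and Me1 and Idh2 in LPS + DMF at 24 h. The highest and lowest groups are a description of the ordered means. Many neighbours in that order lie within their spread: Tkt in LPS + DMF at 4 h (8117 ± 223, SD, n = 3) overlapped Tkt in LPS + MMF at 4 h (7636 ± 777).

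The first comparison sets LPS alone against each vehicle. LPS cannot be told apart there from the vehicle given with it, or from the set of replicate numbers. At 4 h, Nadk alone was called higher with LPS, a call being an adjusted p below 0.05 in limma with Benjamini-Hochberg adjustment over all genes tested. In the table of LPS and DMSO at 4 h, Nadk had 6823, 7478 and 6876 normalised reads with LPS against 4398, 4479 and 4256 with DMSO. The groups did not overlap, and the fold was 1.61 (log2 0.69, SE 0.07, adjusted p = 0.000397). Against EtOH the fold was 1.6 (adjusted p = 0.000627). So 1 of 9 members was called higher in each, against 7.7% of all genes tested versus DMSO and 5.69% versus EtOH. These comparisons share their LPS libraries.

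At 24 h with LPS, Nadk stood further from the vehicle and other members joined it. Nadk had 5849, 7025 and 6535 reads with LPS and 3008, 3011 and 3083 with DMSO, a fold of 2.13 (log2 1.09, SE 0.08, adjusted p = 5.28e-06). Idh1 had 2168, 3018 and 2548 reads against 1406, 1672 and 1822, a fold of 1.57 (adjusted p = 0.00313). Every LPS library was above every DMSO library for both, and also for G6pdx and Idh2, which were not called in limma on these 6 libraries. Taldo1 (fold 1.28, adjusted p = 0.00876) and Pgd (1.27, adjusted p = 0.0351) were also called higher. Against DMSO, 4 of 9 members were called higher and 0 lower, against 12.1% of all genes called higher. The members' median log2 difference was 0.35, beside 0.01 over all genes. Against EtOH, 6 of 9 were called higher, against 10.8% of all genes. These were Nadk (2.26), Idh1 (1.81), Pgd (1.38), Me1 (1.37), Taldo1 (1.29) and G6pdx (1.25), whose adjusted p ran from 4.52e-06 for Nadk to 0.0335 for G6pdx. Me1 and G6pdx missed the threshold against DMSO in limma, with adjusted p of 0.0522 and 0.0577, and were called there by edgeR (0.0494 for both) and DESeq2 (0.0357 and 0.0375). Pgls, Tkt and Idh2 were called against neither vehicle in limma on the 6 libraries of each comparison, with log2 differences from DMSO of 0.10, -0.02 and 0.21. Idh2 was called higher against DMSO in 1 fit over 36 libraries (log2 0.20, limma adjusted p = 0.0417).

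Calls of the smaller changes with LPS were lost when 1 library was left out, while each log2 difference kept its direction. The Pgd call against DMSO was lost without DMSO replicate 4 (adjusted p = 0.104), 5 (0.0508) or 6 (0.0987) or without LPS replicate 2 (0.0732) or 3 (0.0928), with log2 differences from 0.24 to 0.40 beside 0.35 with all 6 libraries. The G6pdx call against EtOH was lost without EtOH replicate 4 (adjusted p = 0.0587), 5 (0.0673) or 6 (0.122) or without LPS replicate 2 (0.0793) or 3 (0.132), with log2 differences from 0.24 to 0.36 beside 0.32. Taldo1 lost its limma call without LPS replicate 3, with adjusted p of 0.0506 against DMSO (log2 0.33) and 0.059 against EtOH (0.34). The Nadk and Idh1 calls against both vehicles at 24 h, and the Me1 and Pgd calls against EtOH, held without any 1 library.

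With DMF, the question is how the drug altered LPS-treated cells. At 4 h, both dehydrogenases of the oxidative arm, malic enzyme and transaldolase rose together. Pgd had 29046, 26848 and 25883 normalised reads with LPS + DMF and 13325, 13882 and 11827 with LPS, a fold of 2.1 (log2 1.07, SE 0.10, limma adjusted p = 0.000273). Me1 had 1552, 1340 and 1500 reads against 741.1, 654.9 and 696.8, also a fold of 2.1 (log2 1.07, SE 0.10, adjusted p = 0.000256). In both genes the lowest DMF library was above the highest LPS library.

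Taldo1 had 8220, 7700 and 7961 reads with LPS + DMF against 4995, 5447 and 5212, a fold of 1.53 (limma adjusted p = 0.00152). G6pdx had 8198, 7919 and 8006 against 5915, 5255 and 4962, a fold of 1.5 (adjusted p = 0.00324). Ikbkg, whose reads could not be told apart from those of G6pdx in their shared region, went from a mean of 1610 with LPS to 3040 with LPS + DMF, and its part in the G6pdx value was not tested. Nadk was lower, with 5246, 5913 and 5157 reads against 6685, 7305 and 6748, a fold of 0.786 (adjusted p = 0.0338). The Nadk call was lost without LPS replicate 1 (adjusted p = 0.0703), 2 (0.079) or 3 (0.125) or LPS + DMF replicate 1 (0.0627) or 3 (0.158), and with no filter on low values (0.0534).

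In all, 4 of 9 members were called higher with DMF at 4 h, against 4.55% of all genes, and 1 was called lower, against 6.51%. The members' median log2 difference was 0.18, beside 0.01 over all genes. Pgls, which acts between both dehydrogenases, had a log2 difference of -0.03 with a 95% interval from -0.31 to 0.25. Tkt (log2 0.18), Idh2 (-0.04) and Idh1 (-0.37, adjusted p = 0.116) were not called. Tkt and Idh1 showed no overlap between groups all the same. Same-numbered libraries of these groups deviated together, and when that number entered the fit as a block, the Idh1 difference had a limma adjusted p of 0.0497, while over the other 8 alternatives it ran from 0.0695 to 0.163. With that block 4 members were called higher, against 5.98% of all genes, and 2 lower, against 9.09%.

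**Figure D2:**
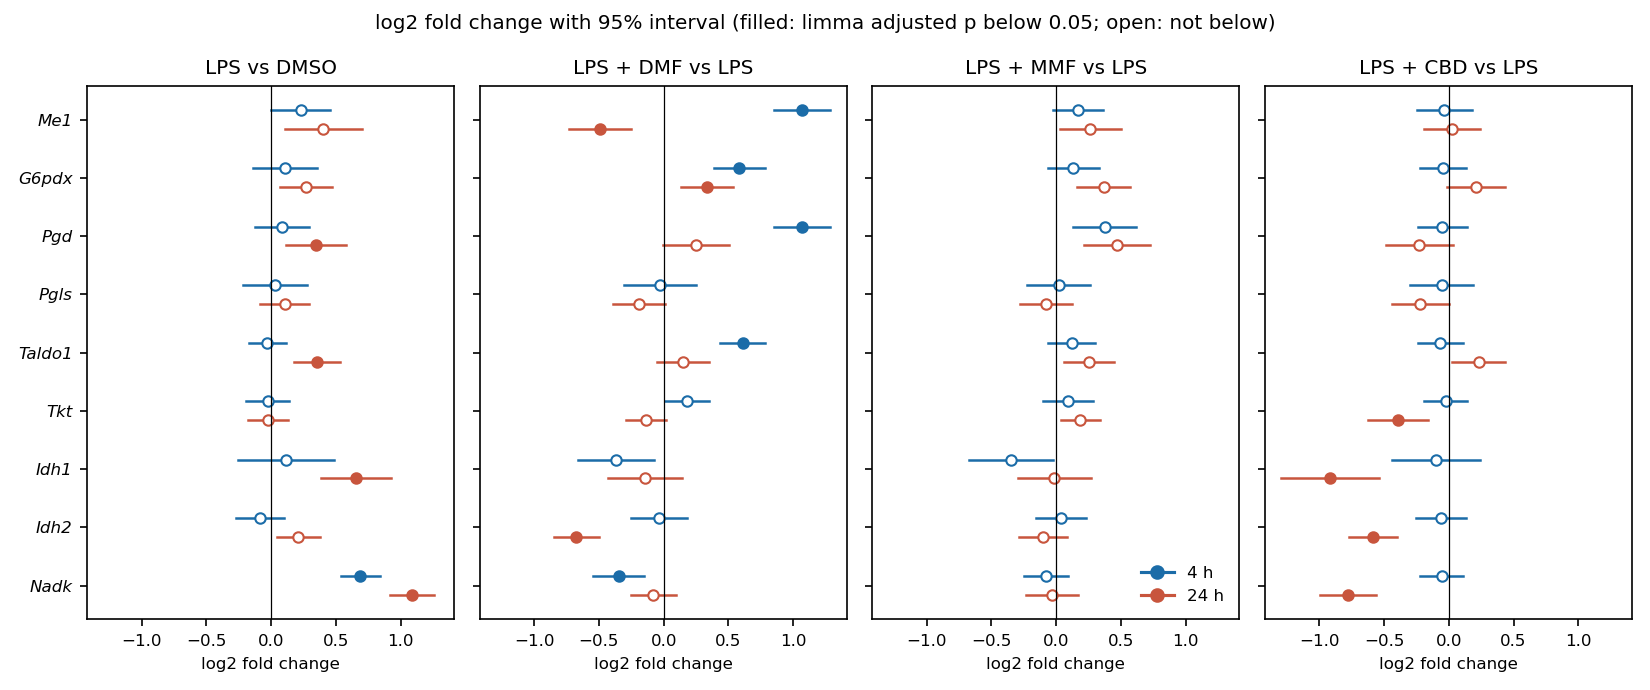
log2 fold change (x axis, with 95% interval from limma) of the 9 genes (y axis) for LPS against DMSO and for each drug with LPS against LPS, at 4 h (blue) and 24 h (red); filled points have an adjusted p below 0.05. Me1 lies at 1.07 with DMF at 4 h and at -0.49 at 24 h, and with CBD the filled points are all at 24 h and below 0.

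With DMF at 24 h, G6pdx was higher as at 4 h, Me1 was called in the opposite direction and Idh2 was lower. Me1 was below LPS alone, with 529.1, 655.5 and 656.7 reads against 829.8, 954.3 and 803.4, a fold of 0.71 (log2 -0.49, SE 0.11, limma adjusted p = 0.00928). Idh2 had 2783, 2543 and 2518 reads against 4498, 3856 and 4194, a fold of 0.626 (log2 -0.68, SE 0.08, adjusted p = 0.000446). G6pdx had 6792, 7503 and 7484 against 5051, 6349 and 5955, a fold of 1.26 (adjusted p = 0.0237). The 3 genes showed no overlap between groups, and neither did Tkt, which was not called. The share of all genes without overlap was not counted. The G6pdx call was lost without LPS replicate 1 (adjusted p = 0.0554) or 3 (0.0625) or LPS + DMF replicate 2 (0.0795) or 3 (0.1).

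Thus 1 of 9 members was called higher, against 11.9% of all genes, and 2 lower, against 13.2%. The numbers paired these libraries, and with the replicate block Pgd (log2 0.25, limma adjusted p = 0.0044) and Taldo1 (0.15, 0.0385) were also called higher and Pgls (-0.19, 0.0352) lower. That made 3 of 9 higher, against 18.3% of all genes, and 3 lower, against 20.8%. Over the other 8 alternatives the adjusted p of these 3 genes ran from 0.0816 to 0.316. Within each number the ratio of LPS + DMF to LPS was 1.19 for Pgd in all 3 pairs.

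The difference between the DMF effects at 24 h and 4 h was tested directly as an interaction over 12 libraries. It was called lower at 24 h for 5 of 9 members, against 8.15% of all genes, and higher for 0. Me1 had the largest of these, with a log2 difference between effects of -1.57 (SE 0.15, limma adjusted p = 1.77e-05), followed by Pgd (-0.83, 0.00401), Idh2 (-0.65, 0.00287), Taldo1 (-0.47, 0.0209) and Tkt (-0.32, 0.0443). The G6pdx value was -0.26 with a 95% interval from -0.55 to 0.03, and was not called. The Tkt call was lost in edgeR (adjusted p = 0.056) and without a filter (0.0814). It was lost as well without replicate 1 (0.0507), 2 (0.0642) or 3 (0.105) of LPS at 4 h, 2 (0.0628) or 3 (0.116) of LPS at 24 h, or replicates 2 or 3 of LPS + DMF at either time (0.0531 to 0.109). The Taldo1 call was lost without replicate 3 of LPS at 4 h (0.0502) or at 24 h (0.0595).

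With MMF at the same concentration, the calls depended on whether libraries of the same number were paired. At 4 h, Pgd had 18355, 19216 and 15350 reads with LPS + MMF against 13936, 14465 and 12371 with LPS, a fold of 1.29 that was not called (limma adjusted p = 0.473). At 4 h 0 of 9 members were called, against 0.122% of all genes, and 2 members and 843 genes had an unadjusted p below the threshold. edgeR (13 genes) and DESeq2 (53 genes) also called 0 members. With the replicate block at 4 h, Pgd was called higher (log2 0.37, limma adjusted p = 0.04) and Idh1 lower (-0.35, 0.0298). That was 2 of 9 members against 179 of 11431 genes, and these numbers were not taken to pair (lowest correlation 0.08). Over the other 8 alternatives the adjusted p of both genes ran from 0.0929 to 0.711. At 24 h 0 of 9 were called, and so were 0 of all 11584 genes (0.0%). There limma gave 5 members and 440 genes with an unadjusted p below the threshold, edgeR called 0 members and 0 genes, and DESeq2 called 1 member, Pgd (adjusted p = 0.0491), among 17 genes.

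At 24 h, libraries of the same number deviated together in LPS and LPS + MMF, and all 3 of them correlated best with their own number. With the number as a block, 5 of 9 members were called higher in limma, against 1.11% of all genes, and 0 lower. Pgd had 18792, 23249 and 20415 reads with LPS + MMF against 13255, 17296 and 14695, ratios of 1.42, 1.34 and 1.39 within the numbers (blocked log2 0.47, SE 0.05, limma adjusted p = 2.04e-06). G6pdx rose by ratios of 1.43, 1.22 and 1.24 (adjusted p = 9.05e-05). Taldo1 (1.23, 1.21 and 1.14, adjusted p = 0.00329), Me1 (1.18, 1.23 and 1.2, 0.0207) and Tkt (1.19, 1.14 and 1.09, 0.0462) rose in every pair too. Over the other 8 alternatives the adjusted p of the 5 genes ran from 0.0491 to 1.0, and the value under the threshold was that of Pgd in DESeq2, so these calls rest on the pairing of the numbers.

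**Figure D3:**
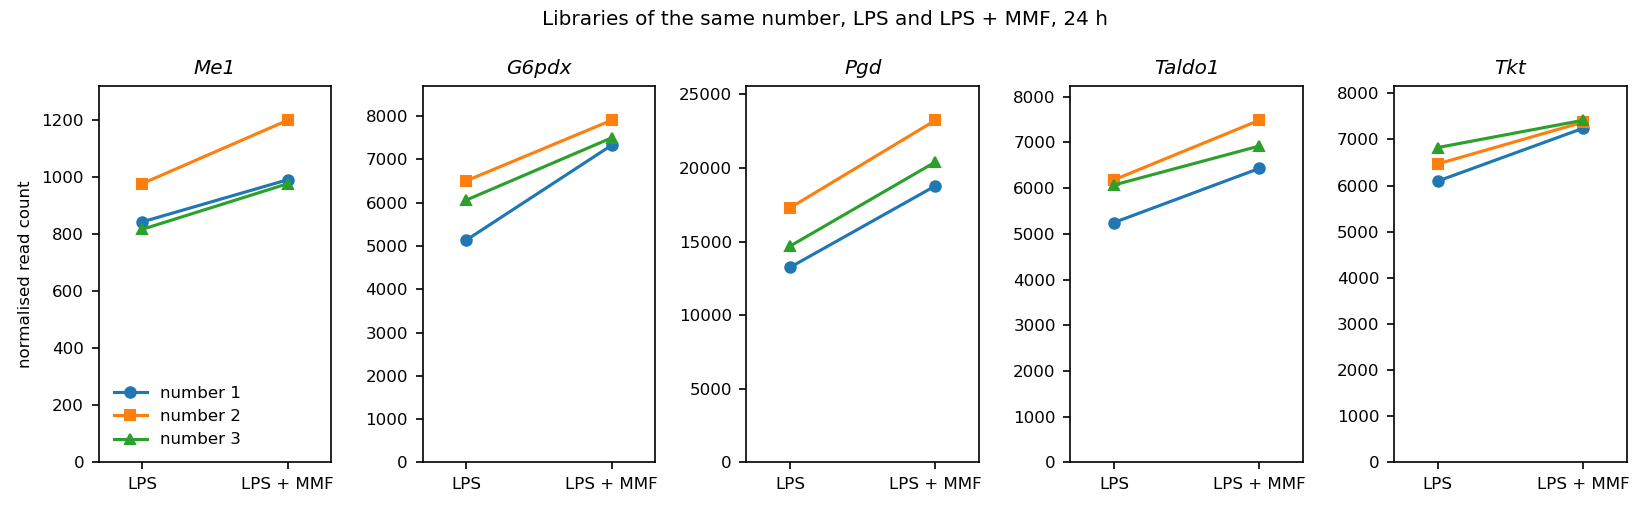
Normalised read counts (y axis, linear from 0) of Me1, G6pdx, Pgd, Taldo1 and Tkt in LPS and LPS + MMF at 24 h (x axis); a line joins the libraries of the same replicate number. Every line rises, and for Me1, G6pdx, Pgd and Taldo1 the library numbered 2 is the highest of its group on both sides.

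DMF and MMF differ by 1 methyl ester, were used at the same concentration and share a vehicle, so this 1 pair of compounds was compared at each time, with p adjusted over all genes. At 4 h DMF gave higher counts than MMF for Me1 (fold 1.87, log2 0.90, SE 0.10, limma adjusted p = 0.000805), Pgd (1.62, 0.00454), Taldo1 (1.41, 0.00803) and G6pdx (1.37, 0.00953). Those are 4 of 9 members, against 3.37% of all genes. In each the groups did not overlap, and the share of all genes without overlap was not counted. The G6pdx call was lost without LPS + DMF replicate 3 (adjusted p = 0.051). The other 5 members were not called, with 95% intervals of the log2 difference from -0.25 to 0.16 for Pgls, -0.11 to 0.29 for Tkt, -0.29 to 0.26 for Idh1, -0.25 to 0.11 for Idh2 and -0.46 to -0.08 for Nadk (adjusted p = 0.0844). Nadk was called lower with DMF than with MMF in 1 fit over 36 libraries (log2 -0.26, limma adjusted p = 0.0151). It was also called lower with the replicate block (log2 -0.27, limma adjusted p = 0.0449), though these numbers were not taken to pair (lowest correlation 0.06).

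At 24 h Me1 was lower with DMF than with MMF. LPS + DMF had 541.1, 673.2 and 672.4 reads against 994.2, 1203 and 987.8 with LPS + MMF, a fold of 0.592 (log2 -0.76, SE 0.11, limma adjusted p = 0.00208). Idh2 (0.672, 0.0013) and Tkt (0.8, 0.00482) were lower with DMF too. These 3 of 9 members stand against 11.4% of all genes called lower. With the replicate block, which these groups support, Pgd (log2 -0.22, limma adjusted p = 0.00274) and Idh1 (-0.13, 0.0435) were added, 5 of 9 against 21.3% of all genes. Their adjusted p ran from 0.164 to 0.673 over the other 8 alternatives. For G6pdx the 95% interval of the log2 difference between DMF and MMF at 24 h was -0.18 to 0.11. The change of the MMF effect between the times was called for 0 of 9 members and 0 of all genes (0.0%) in limma, edgeR and DESeq2, with 0 members and 384 genes at an unadjusted p below the threshold.

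With CBD, no member was called at 4 h and 4 were lower than with LPS alone at 24 h. At 4 h 0 of 9 members were called by limma, edgeR (1 gene) or DESeq2 (3 genes), against 0.00875% of all genes, and 0 members and 363 genes had an unadjusted p below the threshold. The log2 differences of the members at 4 h ran from -0.10 for Idh1 to -0.02 for Tkt. At 24 h Idh1 had 1492, 1894 and 1167 reads with LPS + CBD against 2400, 3275 and 2812 with LPS, a fold of 0.531 (log2 -0.91, SE 0.17, limma adjusted p = 0.00182). Nadk had 3984, 4634 and 3820 against 6475, 7624 and 7211, a fold of 0.583 (log2 -0.78, SE 0.10, adjusted p = 0.000203).

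Idh2 had 2862, 2944 and 2629 reads against 4530, 3893 and 4225, a fold of 0.667 (limma adjusted p = 0.000432). Tkt had 5562, 4838 and 4261 against 6042, 6378 and 6759, a fold of 0.761 (adjusted p = 0.0108), a call lost without LPS replicate 3 (0.0526). The groups did not overlap in any of the 4, and the share of all genes without overlap was not counted. On the scale of all libraries, Nadk averaged 3971 ± 412 with LPS + CBD at 24 h, between LPS (6828 ± 611) and EtOH (3033 ± 207), and Idh1 averaged 1454 ± 349 against 1506 ± 176 in EtOH (SD, n = 3). In bulk RNA, a change in the make-up of the culture and a change in RNA per cell cannot be told apart. The microglia marker Cx3cr1 averaged 17.8 with LPS + CBD at 24 h and 288.5 with LPS, and its part in these values was not tested.

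So 4 of 9 members were called lower with CBD at 24 h, against 24.8% of all genes. The members' median log2 difference was -0.23, beside a median of all genes near 0. These numbers also paired by the correlation of their deviations. With the block, Pgd (log2 -0.23, limma adjusted p = 0.041) and Pgls (-0.22, 0.0179) were called lower and G6pdx (0.21, 0.0287) and Taldo1 (0.23, 0.0246) higher. That gave 6 of 9 lower against 29.2% of all genes and 2 higher against 27.5%. The adjusted p of these 4 genes ran from 0.0174 to 0.182 over the other 8 alternatives. Taldo1 was also called in DESeq2 (0.0482), and Taldo1 (0.0174) and Pgls (0.0238) were called in 1 fit over all libraries. Me1 had a log2 difference of 0.03 with an interval from -0.19 to 0.24. The CBD effect at 24 h was below that at 4 h for Idh1 (log2 -0.81, SE 0.25, limma adjusted p = 0.024), Nadk (-0.72, 0.000724) and Idh2 (-0.52, 0.00482), 3 of 9 members against 16.5% of all genes. With the replicate number as a block over both times, Tkt was called lower as well (log2 -0.36, limma adjusted p = 0.0306) and Taldo1 higher (0.31, 0.0426), which gave 4 of 9 lower against 20.8% of all genes and 1 higher against 19.0%. The numbers were not taken to pair between 4 h and 24 h with LPS + CBD (lowest correlation 0.03). Without the block, Tkt had an adjusted p of 0.0528 and was called in DESeq2 (0.0392), with TMM factors (0.0493) and with a filter at 50 (0.0493). The Idh1 interaction call was lost without replicate 2 of LPS at 24 h (0.0566), 1 (0.056) or 3 (0.0595) of LPS at 4 h, 3 of LPS + CBD at 24 h (0.0615) or 2 of LPS + CBD at 4 h (0.0607).

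Between DMSO and EtOH no member was called without a replicate block. At 4 h 0 of 9 members were called, against 0.0% of all genes, and at 24 h 0 of 9, against 0.00854%. limma gave 0 members at an unadjusted p below the threshold at either time (1051 and 430 genes), and edgeR (0 genes at 4 h and 1 at 24 h) and DESeq2 (87 and 3) called 0 members. The exception came with the replicate block at 4 h, where Idh1 was lower with DMSO (log2 -0.30, limma adjusted p = 0.00116), 1 of 9 against 3.81% of all genes, while the other 8 alternatives gave 0.649 to 0.936.

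Between 4 h and 24 h most of these genes fell in the vehicle groups. With DMSO, 5 of 9 were called lower at 24 h, against 25.8% of all genes, and with EtOH 7 of 9, against 29.5%. Nadk fell by 0.54 on the log2 scale with DMSO (SE 0.06, limma adjusted p = 6.02e-05) and by 0.65 with EtOH (adjusted p = 3.93e-05). With LPS alone Tkt was called lower (log2 -0.23, adjusted p = 0.0408), 1 of 9 against 24.3%, and Idh1 higher (0.50, 0.0163), 1 of 9 against 24.7%. Whether the time effects differ between vehicle and LPS was not tested. Idh1 was also higher at 24 h with LPS + DMF (log2 0.72, adjusted p = 0.000441) and with LPS + MMF (0.84, 0.000274), each time 1 of 9, against 29.7% and 25.1% of all genes.

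With LPS + DMF 6 of 9 were lower at 24 h, against 29.1% of all genes, led by Me1 (log2 -1.43, SE 0.11, limma adjusted p = 7.5e-06) and Pgd (-0.81, 0.000116). With LPS + CBD 3 were lower, against 31.6%, Nadk (-0.86, 2.01e-05), Tkt (-0.60, 0.000706) and Idh2 (-0.46, 0.000435), and 2 were higher, also against 31.6%, Taldo1 (0.26, 0.0246) and G6pdx (0.19, 0.0437). With LPS + MMF the replicate block, which the numbers support, added Me1 (log2 0.24, limma adjusted p = 0.0357) and G6pdx (0.18, 0.0349), 3 of 9 higher against 28.3% of all genes. Over the other 8 alternatives these 2 had adjusted p of 0.0518 to 0.123.

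Calls of the smaller changes over time were lost when 1 library was left out, and each log2 difference kept its direction. The adjusted p without each library is given in parentheses. The limma call of Pgd with DMSO was lost without replicate 4 (0.1), replicate 6 (0.0706) at 24 h or replicate 4 (0.0938) at 4 h, with log2 differences from -0.25 to -0.17. That of Tkt with DMSO was lost without replicate 5 (0.0551), replicate 6 (0.0554) at 24 h or replicate 4 (0.0634), replicate 6 (0.0665) at 4 h (log2 -0.23 to -0.17). That of Idh2 with DMSO was lost without replicate 6 (0.0537) at 24 h (log2 -0.20). That of Me1 with EtOH was lost without replicate 4 (0.102), replicate 6 (0.138) at 24 h or replicate 4 (0.184), replicate 6 (0.081) at 4 h (log2 -0.26 to -0.17). That of Tkt with EtOH was lost without replicate 4 (0.0695) at 4 h (log2 -0.16). That of Tkt with LPS was lost without replicate 1 (0.116), replicate 2 (0.0679), replicate 3 (0.0572) at 24 h or replicate 1 (0.122), replicate 3 (0.112) at 4 h (log2 -0.27 to -0.18). That of Idh1 with LPS was lost without replicate 2 (0.0691), replicate 3 (0.0513) at 24 h or replicate 1 (0.0522), replicate 3 (0.063) at 4 h (log2 0.39 to 0.49). That of G6pdx with LPS + CBD was lost without replicate 1 (0.055), replicate 2 (0.136) at 24 h or replicate 1 (0.057), replicate 2 (0.0958), replicate 3 (0.134) at 4 h (log2 0.14 to 0.22). That of Taldo1 with LPS + CBD was lost without replicate 1 (0.0654), replicate 2 (0.0694) at 24 h or replicate 1 (0.0914), replicate 2 (0.0763) at 4 h (log2 0.21 to 0.25). The Me1 call with EtOH was also lost in edgeR (0.0506), in DESeq2 (0.0542), with TMM factors (0.0554), with no filter (0.0561) and in 1 fit over all libraries (0.114). The Tkt call with LPS was lost in edgeR (0.0546) and with no filter (0.0685), the G6pdx call with LPS + CBD with no filter (0.0688) and in 1 fit (0.0518), and the Pgd call with DMSO in 1 fit (0.092).

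Other genes of these routes were read from 3 lists. With LPS against DMSO at 24 h, 3 of the other pentose phosphate genes were higher and 0 lower, 3 of the other supply genes were higher and 3 lower, and 1 antioxidant gene was higher and 0 lower, each list having 6 or 10 genes tested. Of all genes, 12.1% were higher and 10.6% lower there. Of 12 other pentose phosphate genes 10 were tested, and with DMF at 4 h 0 of them were called (median log2 0.09). Of 8 listed antioxidant and NADPH-linked genes 7 were tested, and 5 were called higher with DMF at 4 h (median 1.44), against 4.55% of all genes, whose median was 0.01. They were led by Srxn1, sulfiredoxin, which repairs peroxiredoxins with ATP and a thiol donor and does not itself use NADPH (log2 3.46, SE 0.09, limma adjusted p = 1.21e-07), Blvrb, biliverdin reductase B (2.01, 1.43e-05), and Txnrd1, thioredoxin reductase 1 (1.68, 1.99e-05). Of 13 other NADP-linked supply genes 10 were tested, and 2 rose (median 0.09). In these lists 0 genes were called lower with DMF at 4 h, against 6.51% of all genes. The lists were assembled with results of these data known, so their counts are descriptions.

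At 24 h with DMF, the list of other supply genes had 1 gene higher and 5 lower of 10 tested (median log2 -0.35), against 11.9% of all genes higher and 13.2% lower. The other pentose phosphate genes had 1 higher and 3 lower of 10 (median -0.01), and the antioxidant genes 4 higher and 0 lower of 7 (median 0.55), beside a median of all genes of -0.01. Over the 3 lists together, the falls were led by Acly, ATP citrate lyase (-0.86, limma adjusted p = 9.64e-05), Prps1, which makes phosphoribosyl pyrophosphate (-0.66, 0.00259), and Slc25a1, the mitochondrial citrate carrier (-0.65, 0.000446). Over the 3 lists, the rises were led by Nqo1, a quinone reductase (1.66, 0.0129), Srxn1 (1.18, 0.000476) and Aldh1l2, the mitochondrial 10-formyltetrahydrofolate dehydrogenase (1.08, 7.5e-05). Nqo1 was scarce, with group means of 8.11 reads in LPS and 29.5 in LPS + DMF at 24 h.

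With CBD at 24 h, the other supply genes had 1 higher and 7 lower of 10 tested (median log2 -0.59), against 23.9% of all genes higher and 24.8% lower. The other pentose phosphate genes had 2 higher and 4 lower of 10 (median -0.07), and the antioxidant genes 2 higher and 1 lower of 7 (median 0.27). The counts of 2 and of 1 in the 3 lists lie near or below the shares of all genes. Over the 3 lists together, Acly (-1.14, limma adjusted p = 6.22e-05), Me2, the mitochondrial malic enzyme (-1.10, 7.25e-05), and Mthfd1, the cytosolic trifunctional folate enzyme (-0.88, 0.000297), fell most. Srxn1 (1.46, 1.06e-05), Aldh1l2 (0.93, 0.000151) and Rbks, ribokinase (0.69, 0.0118), rose most. With MMF at 4 h 2 antioxidant genes were called higher, Srxn1 (1.11, 0.00958) and Txnrd1 (0.70, 0.0268), both named here after their values were seen, and at 24 h 0 genes of the 3 lists were called by limma without the block.

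**Figure D4:**
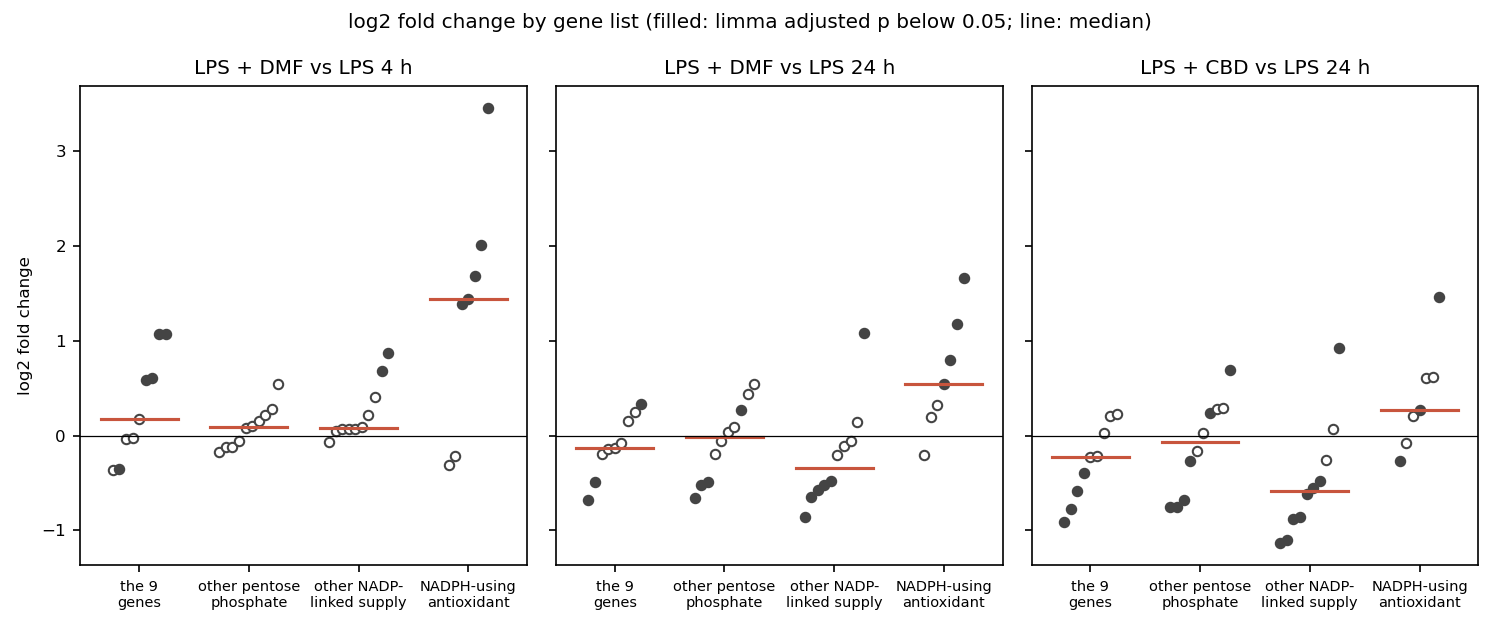
log2 fold change (y axis) of the 9 genes and of each tested gene of the 3 other lists (x axis) for DMF at 4 h and 24 h and CBD at 24 h against LPS; filled points have a limma adjusted p below 0.05 and the red line is the median. The list labelled NADPH-using antioxidant reaches 3.46 with DMF at 4 h, the value of Srxn1, which does not itself use NADPH. The other supply genes lie mostly below 0 at 24 h with either drug.

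The patterns of the members over the 12 group means were compared with those of 10095 other genes with a mean of at least 50 reads, as a description without a test. The points share the same 36 libraries. G6pdx and Taldo1 were each other's near neighbours (Pearson r = 0.96), and both had Cyb5a and Prdx1 among their 3 most alike genes. Pgd was most like Gsr, Ptpn1 and Prrc2c (r from 0.93 to 0.95), and Me1 most like Gss, Cep20 and Ccnyl1 (0.90 to 0.96). Nadk was most like Igsf6, Nfkbid and Cd14 (0.94 to 0.95), Idh1 most like Cd72, Zbtb32 and Sema4a (0.89 to 0.93), and Idh2 most like Arhgef39, Nup205 and Cops4 (0.97 to 0.98). Tkt was most like Snrpd2, Cisd3 and Uck2 (0.97 to 0.98). The range of Pgls was small, and its nearest genes were Srebf2, B230219D22Rik and Mtmr1 (0.88 to 0.91). Among the members, G6pdx and Pgd had r = 0.91 and Pgd and Me1 r = 0.82.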

How the data were processed

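Poly(A)+ RNA of 36 BV-2 libraries was sequenced. The authors checked read quality with FastQC 0.12.1 and trimmed reads with cutadapt 4.4 and Trimmomatic 0.39. They aligned them to GRCm39 (HISAT2 2.2.1), counted them per gene (HTSeq 2.0.3) and ran DESeq2 1.40.2 in R 4.3.1. The versions are credited to the submitters' processing notes. The deposited tables, 30 in all and 1 for each pair of groups, hold a signal, counts divided by size factors of that pair. They also hold the authors' log2 fold changes, errors and p-values, which were not used. Of the 180 library columns, 155 gave back whole reads by their own step, and 100.0% of values came out whole with a tolerance of 0.01 read. Values shared between tables (2020699) differed in 0 cases.

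limma 3.58.1 (R 4.3.3, trend) was run on log2(normalised count + 1) of the 6 libraries of each comparison, for genes with at least 10 in at least 3 libraries, with Benjamini-Hochberg adjustment over all genes. A fold change is on this scale, which understates changes of low genes. Interactions used 12 libraries on 1 scale of medians of ratios, the scale also used for levels. Lengths come from the Ensembl canonical transcripts of a later annotation (GRCm39), and promoters from RefSeq. In simulated data, 98% of genes changed by log2 1.0 and 40% of those changed by 0.5 were recovered for DMF against LPS at 4 h (11392 genes, with 8.6% of calls false), and 84% and 8% for the DMF interaction (11863 genes, 2.1% false). Each size had 100 changed genes, all with a mean of at least 50 reads, so recovery of scarcer genes was not tested. The depth of 14110424 to 26676607 reads sets the counting error only.

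Numbers were taken to pair libraries where every same-numbered pair of the groups compared had a correlation of deviations over 0.1 across 10096 genes. This held for DMF (0.17 to 0.46 at 4 h, 0.21 to 0.51 at 24 h) and CBD (0.23 to 0.63, 0.13 to 0.53) against LPS, MMF against LPS at 24 h (0.33 to 0.68), DMF against MMF at 24 h (0.2 to 0.58), DMSO against EtOH (0.29 to 0.73, 0.19 to 0.46) and 24 h against 4 h with LPS (0.15 to 0.28) or LPS + MMF (0.14 to 0.39). The pairing comes from the data, not the labels.

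The 9 members were all named. From the other lists, the called genes with the 3 largest rises and falls were named for DMF at 4 h and 24 h and CBD at 24 h, and for each member the 3 genes most like it. The members and lists were chosen with earlier results of these data known. Alternatives were other pseudocounts (0.5 and 5), a filter at 50 or none, TMM factors, edgeR 4.0.16 and DESeq2 1.42.0 on the recovered reads, 1 fit over 36 libraries, a replicate block, and leaving out each library.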

Additional observations from a re-analysis of the deposited data

Results flagged for a closer look

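Groups of 3 libraries were not examined for a library far from the others. Of the 9 genes, 8 values stood out because a drug's effect differed between 24 h and 4 h by a limma interaction test. With DMF the effect at 24 h lay below that at 4 h on the log2 scale by -1.57 for Me1 (adjusted p = 1.77e-05), -0.83 for Pgd (0.00401), -0.65 for Idh2 (0.00287), -0.47 for Taldo1 (0.0209) and -0.32 for Tkt (0.0443). For Me1 the effect itself went from 1.07 to -0.49. With CBD the difference was -0.81 for Idh1 (adjusted p = 0.024), -0.72 for Nadk (0.000724) and -0.52 for Idh2 (0.00482). Without 1 library, the calls of Tkt and Taldo1 with DMF and of Idh1 with CBD were lost.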

How the results depend on the processing

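Of 207 values of members in comparisons 66 were called, and among 3204 other fits 0 called values reversed. The count of members called moved with the replicate block to 6 for DMF against LPS at 24 h, 5 for MMF against LPS at 24 h, 8 for CBD against LPS at 24 h, 5 for DMF against MMF at 24 h, 1 for DMSO against EtOH at 4 h, 3 for 24 h against 4 h with LPS + MMF and 5 for the CBD interaction. For MMF against LPS at 4 h, where the numbers were not taken to pair (lowest correlation 0.08), the block gave 2, against 179 of 11431 genes. These were Pgd, higher (log2 0.37, limma adjusted p = 0.04), and Idh1, lower (-0.35, 0.0298). The numbers were also not taken to pair between 4 h and 24 h with LPS + CBD (lowest correlation 0.03), which bears on the CBD interaction. The block added 25 calls and took away 0. It changed no other call than those added. DESeq2 gave 1 member for MMF against LPS at 24 h, 1 fit over 36 libraries gave 7 for LPS against DMSO at 24 h, and edgeR and no filter each gave 1 for 24 h against 4 h with LPS.

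Leaving out 1 library each time gave 1 to 1 members for LPS against either vehicle at 4 h, 2 to 5 against DMSO and 4 to 6 against EtOH at 24 h. The counts were 4 to 5 and 2 to 5 for DMF, 0 to 0 at both times for MMF, and 0 to 0 and 3 to 7 for CBD at 4 h and 24 h. DMF against MMF gave 3 to 4 and 3 to 3, and DMSO against EtOH 0 to 0 at both times. Over time the counts were 2 to 6 with DMSO, 5 to 7 with EtOH, 0 to 2 with LPS, 7 to 7 with LPS + DMF, 1 to 1 with LPS + MMF and 3 to 5 with LPS + CBD. The interactions gave 3 to 5 for DMF, 0 to 0 for MMF and 2 to 4 for CBD. The causes of these moves were not tested.

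Counts over all genes moved by over 1.5 times with the block for DMF against LPS at 24 h (2926 to 4566), MMF against LPS (14 to 179 at 4 h, 0 to 206 at 24 h), CBD against LPS at 4 h (1 to 4), DMF against MMF (949 to 1740, 2508 to 4639), DMSO against EtOH (0 to 876, 1 to 20) and the MMF interaction (0 to 2). In 1 fit over all libraries they moved at 4 h for LPS against DMSO (1609 to 2435), DMF against LPS (1257 to 2580), CBD against LPS (1 to 3) and DMF against MMF (949 to 2422), and at both times for MMF against LPS (14 to 55, 0 to 6) and DMSO against EtOH (0 to 3, 1 to 0). DESeq2 moved them for MMF against LPS (14 to 53, 0 to 17), CBD against LPS at 4 h (1 to 3) and DMSO against EtOH (0 to 87, 1 to 3), and no filter for MMF against LPS at 24 h (0 to 3) and CBD against LPS at 4 h (1 to 2).

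Leaving out 1 library also moved counts over all genes, and with them the shares set beside the members. The lowest were 663 for LPS against DMSO at 4 h (without DMSO replicate 6) and 1683 of 2631 at 24 h (LPS 3), 523 of 1169 (EtOH 6) and 1441 of 2412 (LPS 3) against EtOH, 597 (LPS 3) and 1352 (LPS + DMF 3) for DMF against LPS, 310 and 962 (LPS + DMF 3) for DMF against MMF and 1266 of 1954 (LPS + DMF 3 at 24 h) for the DMF interaction. MMF against LPS at 4 h ran from 1 (LPS 3 or LPS + MMF 1) to 63 (LPS 2) and reached 2 at 24 h (LPS 2), CBD against LPS at 4 h gave 0 (LPS 1 or 3 or LPS + CBD 1 or 2), and DMSO against EtOH at 4 h reached 1 (DMSO 4).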
